A study of Mus musculus with 22 samples.

Results

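MCL-like lymphomas of 3 mice were compared with the same tumours after regrowth in a second mouse. The members were 8 of the 22 samples of the series, 3 primary tumours and 5 transplants, chosen by the mouse of origin that the labels name for each transplant. MCL stands for mantle cell lymphoma, and MCL-like is the immunophenotype that the labels give to all 8 samples, although the titles of the transplants call them non-MCL. Both groups carry the genotype R26-Ccnd2tg/tg;p53fl/fl;Mb1Cretg/+ on a mixed 129/C57Bl6 background. The cyclin D2 transgene, the floxed p53 alleles and the Mb1-driven Cre, which acts in B lineage cells, are therefore shared by primaries and transplants. The labels give no treatment, and the sources used here give neither the ages of the mice nor the times of engraftment.

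Primary A was a mesenteric lymphoma, and its transplants A1 and A2 grew in the spleens of separate NSG mice. Primary B was taken from spleen and gave the spleen transplants B1 and B2, and primary C was taken from spleen and gave the spleen transplant C1. Only origin A thus changed organ on transplantation. NSG mice lack mature T, B and NK cells, stand on the NOD strain background and keep phagocytes, red cell precursors, platelets and stroma. RNA of a primary is a mixture of tumour and original mouse, and RNA of a transplant is a mixture of tumour and NSG host. Sister transplants share a tumour, so the counts of A1 and A2, and those of B1 and B2, were summed and the test ran over 3 pairs with the origin as a block. The p-values rest on the spread between these 3 pairs, moderated towards the spread of the other genes tested, and cover no further tumours. Sequencing read tags at the 3' ends of transcripts, with library totals from 3050785 to 5563978 counts, and levels below are CPM, the counts of a gene divided by the library total and scaled to a common size.

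Mantle cell lymphoma is a B cell malignancy driven by a D-type cyclin, usually with surface CD5. In mice CD5 marks B1a cells, a self-renewing B cell lineage of the body cavities and spleen with a restricted antibody repertoire. Growth in an NSG host removes a tumour from the T and NK cells, the antigens and the tissue in which it arose, and leaves the malignant B cells with the myeloid, erythroid and stromal cells of the new host.

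Genes tied to the MCL-like label were read in every library. Non-MCL tumours of the series carry the Ccnd2 transgene too, and no non-MCL level is set beside these genes. Their levels therefore describe the samples and cannot check the label. Ccnd2, the cyclin gene that the transgene carries, was at 1181 CPM in primary A and at 1493 and 2591 CPM in its transplants A1 and A2. Primary B had 1943 CPM of Ccnd2 against 1906 and 1872 CPM in B1 and B2, and primary C had 1800 against 2107 CPM in C1. These tags are counted on the Ccnd2 gene row, and transcripts of the transgene and of the endogenous gene cannot be told apart in it. Cd5, the surface marker of B1a cells, lay between 12.5 and 47 CPM over the 8 libraries. Fcer2a, which encodes the follicular B cell receptor CD23, was at or below 2.96 CPM in every library. Spn, encoding CD43, another B1 surface marker, was between 45.2 and 237 CPM. T cells carry Cd5 and Spn as well, and bulk levels do not tell their transcripts from those of the tumour. Trp53 tags were at most 8.79 CPM. They say nothing of the p53 deletion, because the deleted exons are not given in the labels and a 3' tag can lie outside them. Ccnd2, Cd5 and Spn transcripts were thus detected in every primary and transplant, and Fcer2a was low throughout. Not every gene went with the label. Igll1, a gene of early B cell precursors, was at 30.4 CPM in primary B and between 0.297 and 11.9 CPM in the other libraries. A list of 16 genes lower in MCL-like than in other primaries was chosen on these primaries. It summed to 371 CPM in primary B, against 134 CPM in A and 60.8 CPM in C.

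Immunoglobulin variable (V) segments gave a check on origin, because the cells of one B cell clone share a rearranged heavy chain segment. The leading heavy chain segment of each origin and the leading kappa segment of origin C are printed as the reference sequence of GENCODE M21 on GRCm38, not as the tumours' own reads. Capitals mark the conserved cysteine codon near the 3' end and the germline bases after it, where the third complementarity-determining region begins.
Ighv1-53: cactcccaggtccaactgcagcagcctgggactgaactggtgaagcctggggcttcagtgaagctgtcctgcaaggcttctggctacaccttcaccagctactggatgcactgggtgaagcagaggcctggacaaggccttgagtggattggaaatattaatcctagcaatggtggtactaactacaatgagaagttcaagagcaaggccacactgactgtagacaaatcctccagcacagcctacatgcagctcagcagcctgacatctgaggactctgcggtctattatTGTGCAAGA
Ighv1-69: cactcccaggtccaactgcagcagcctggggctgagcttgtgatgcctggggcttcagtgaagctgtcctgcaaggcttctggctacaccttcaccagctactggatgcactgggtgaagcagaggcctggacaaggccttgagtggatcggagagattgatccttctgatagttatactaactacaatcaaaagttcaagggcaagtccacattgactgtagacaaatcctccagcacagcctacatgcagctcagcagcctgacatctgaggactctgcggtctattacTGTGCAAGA
Ighv11-2: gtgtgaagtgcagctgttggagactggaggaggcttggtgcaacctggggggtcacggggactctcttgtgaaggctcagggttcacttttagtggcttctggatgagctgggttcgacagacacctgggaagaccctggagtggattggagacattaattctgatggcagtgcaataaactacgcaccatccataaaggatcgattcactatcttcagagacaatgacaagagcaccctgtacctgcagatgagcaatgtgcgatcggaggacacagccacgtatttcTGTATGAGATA
Igkv14-126: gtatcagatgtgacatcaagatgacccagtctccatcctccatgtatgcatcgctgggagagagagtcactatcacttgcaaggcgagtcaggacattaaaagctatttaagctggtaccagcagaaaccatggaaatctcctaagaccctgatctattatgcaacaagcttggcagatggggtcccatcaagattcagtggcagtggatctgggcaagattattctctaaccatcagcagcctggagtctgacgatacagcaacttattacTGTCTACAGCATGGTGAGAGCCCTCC

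These are the last 300 bases of each annotated heavy chain segment and the last 298 bases of Igkv14-126. Ighv1-53 lies at chr12:115158403-115158702 on the minus strand, Ighv1-69 at chr12:115623161-115623460 on the minus strand and Ighv11-2 at chr12:114048241-114048540 on the minus strand. Igkv14-126 lies at chr6:67896345-67896642 on the plus strand. Ighv1-53 and Ighv1-69 differ at 21 of their 300 bases, so reads over the bases they share cannot tell them apart. Tags over V segments were few because the library reads 3' ends, and percentages carry exact Clopper-Pearson 95% intervals that cover counting error only.

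Each origin kept its leading heavy chain segment. In origin A, Ighv1-53 took 10 of the 11 heavy chain V counts of the primary (90.9%, interval 58.7 to 99.8%), 102 of 102 in A1 and 35 of 35 in A2. In origin B, Ighv1-69 took 10 of 10 counts in the primary, 10 of 10 in B1 and 6 of 6 in B2, where 0 counts of any other segment allow a share of up to 45.9%. In origin C, Ighv11-2 took 38 of 38 counts in the primary and 62 of 63 in C1 (98.4%, interval 91.5 to 100%). No origin shared its leading heavy chain segment with another. Among the kappa segments of origin C, Igkv14-126 took 29 of 43 counts in the primary (67.4%, interval 51.5 to 80.9%) and 62 of 92 in C1 (67.4%, interval 56.8 to 76.8%). Ighv11-2 paired with Igkv14-126 is a known recurrent antibody of B1a cells that binds phosphatidylcholine. Light chain segments did not all keep their order. Igkv9-119 led in primary A with 62 of 176 kappa counts and in A2 with 57 of 198, whereas A1 was led by Igkv2-109 with 53 of 161 counts and had 22 of Igkv9-119. The libraries of origins B and C had 0 counts of Igkv9-119. Igkv2-109 was among the leading kappa segments in libraries of all 3 origins and did not separate them. Of the lambda V counts in origin C, Iglv3 took 8 of 11 in the primary (72.7%, interval 39 to 94%) and Iglv1 took 11 of 13 in C1 (84.6%, interval 54.6 to 98.1%). Iglv1 led the lambda counts of the other 6 libraries, which numbered 3 to 110.

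Over 8585 genes with at least 10 CPM on average, sister transplants were by correlation the most alike libraries of origin B, but not of origin A. B1 and B2 correlated with Pearson's r = 0.983 on the log2(CPM + 1) scale, and 0.967% of the genes differed by more than 2-fold between them. A1 and A2 correlated with r = 0.924, and 7.64% of the genes differed by more than 2-fold. Genes are not independent replicates, so these correlations are descriptions. Primary A was closer to A2 (r = 0.935) than to A1 (r = 0.858). Between primary A and A2, 7.97% of the genes differed by more than 2-fold, so by this share the sisters A1 and A2 were closest. Primary B correlated with its transplants at r = 0.856 and 0.855, and primary C with C1 at r = 0.863. B1 and C1 correlated at r = 0.905 and B2 and C1 at r = 0.896, each above the r of these transplants with their own primaries. By the share of genes more than 2-fold apart the order also differed for C1, with 11.9% against primary C, 13.1% against B1 and 14.5% against B2. For B1 and B2 the shares against primary B were 23.7% and 24.8%. The primaries B and C correlated at r = 0.861. The remaining pairs of libraries from different origins lay between r = 0.711 and 0.849.

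**Figure D1:**
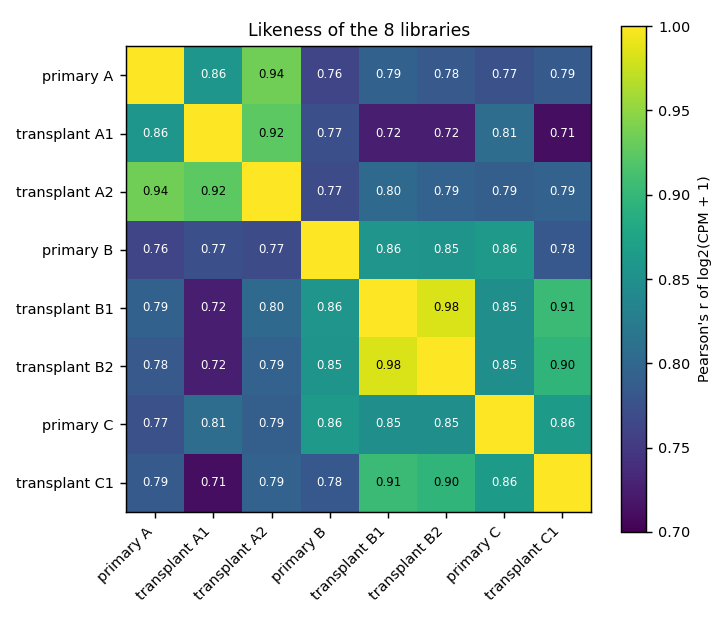
Pearson's r of log2(CPM + 1) over 8585 genes for each pair of the 8 libraries, with the colour scale running from 0.70 to 1. The sister transplants B1 and B2 have r = 0.983, and B1 with C1, from another origin, has r = 0.905, above primary B with B1 at 0.856.

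No gene passed the test between transplants and primaries. Of 12020 genes tested with edgeR's quasi-likelihood test, 0 had an adjusted p under 0.05 (0% called), and 656 had an unadjusted p under 0.05 (5.46%). Of these, 288 were higher in transplants (2.4% of the genes tested) and 368 lower (3.06%). DESeq2 with the same block called 31 genes (0.258%), 6 of them higher (0.0499%) and 25 lower (0.208%). Its value is not printed below for every gene it called. Called without a printed value are Cxcr3, Cr2, Cx3cr1, BE692007, Snord89, Mirt1, Satb1, Ighg2b, Cd4, Cd27 and Il2rb. So are Apoe, Mfge8, Clu, Pla2g2d, Gm11942, Gm15459 and BC018473. By pairs, 1709 genes were higher in 3 of 3 transplants (14.2%) and 1814 lower in 3 of 3 (15.1%) after TMM scaling. On the same scaled levels, 871 of the 12020 genes had no overlap between primaries and transplant sums, 437 of them higher and 434 lower. On simulated counts of this design, changes were planted only in genes with at least 10 CPM on average. The test recovered 57% of the 4-fold changes and 2% of the 2-fold changes, and it called 8 unchanged genes. Genes are therefore described by their level in each library and the number of pairs with one direction, beside these backgrounds. TMM scaling moved the log2 ratio of transplant over primary by -0.10 in origin A, 0.38 in B and 0.04 in C, so unscaled CPM and scaled direction can differ in origin B. The median log2 fold change of all tested genes was 0.01.

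S1pr4, a sphingosine-1-phosphate receptor of lymphocytes, had the lowest p of all genes. It was at 40.4 CPM in primary A and at 8.79 and 17.5 CPM in A1 and A2, at 48.4 against 7.54 and 11.1 CPM in origin B, and at 39.9 against 7.55 CPM in origin C. Every transplant lay below every primary. The log2 fold change was -2.04 ± 0.31 (SE, 3 pairs; edgeR adjusted p = 0.549, DESeq2 adjusted p = 0.00105). The gene is ENSMUSG00000044199 on chromosome 10, from 81497747 to 81500132 in GRCm38. Cxcr3, a chemokine receptor of activated T cells and some B cells, was at 129 CPM in primary A and at 25.9 and 36.4 CPM in its transplants. In origin B it was at 4.84 CPM against 0.655 and 0 CPM, where 0 counts allow up to 0.983 CPM, and in origin C at 4.43 against 0.18 CPM. Cxcr3 was lower in each transplant than in its own primary, with a log2 fold change of -2.86 ± 0.46 (edgeR adjusted p = 0.549). Cx3cr1, the fractalkine receptor of monocytes and NK cells, was lower in 3 of 3 pairs, with 11, 35.5 and 25.7 CPM in the primaries and 2.54 to 8.85 CPM in the transplants.

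Cr2, which encodes the complement receptor CD21 of mature B cells and follicular dendritic cells, had the most negative log2 fold change among the 8 lower genes with the lowest p. It was at 3.87 CPM in primary A against 0.22 and 0.282 CPM, at 73.1 CPM in primary B against 11.1 and 15.1 CPM, and at 6.96 CPM in primary C against 0.359 CPM. The log2 fold change was -3.09 ± 0.55 (edgeR adjusted p = 0.749). Ttn, the giant muscle protein titin, was at 1685 CPM in primary A against 392 and 395 CPM. In origin B it was at 39 against 2.29 and 2.95 CPM and in origin C at 5.7 against 1.08 CPM. The log2 fold change of Ttn was -2.67 ± 0.42 (edgeR adjusted p = 0.549, DESeq2 adjusted p = 1.48e-07). Both of the other muscle genes looked at were low. Ckm, muscle creatine kinase, was at most 9.22 CPM and Acta1, skeletal actin, at most 1.78 CPM in any of the 8 libraries. The remaining lower genes of this group were BE692007 (log2 fold change -1.96), the small nucleolar RNA Snord89 (-1.47) and the long non-coding RNA Mirt1 (-1.46), each lower in 3 of 3 pairs.

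Among the higher genes, Mt1, the metal-binding protein metallothionein, was at 23.8 CPM in primary A and at 128 and 60.2 CPM in A1 and A2. It was at 127 CPM in primary B against 374 and 473 CPM, and at 29.1 CPM in primary C against 54.5 CPM. The transplant of each origin lay above its own primary, although the groups overlapped (log2 fold change 1.67 ± 0.34, edgeR adjusted p = 0.749, DESeq2 adjusted p = 0.00248). Bcl2l11 encodes Bim, a protein that triggers apoptosis. It was at 52.3, 72.8 and 59.9 CPM in primaries A, B and C, and the 5 transplants lay between 92.1 and 137 CPM without overlap (log2 fold change 1.07 ± 0.28, edgeR adjusted p = 0.82). Hmgb1, a chromatin protein, had 58, 65.8 and 117 CPM in the primaries and 95.6 to 227 CPM in the transplants, with each transplant above its own primary (log2 fold change 1.21). Lrg1, a secreted glycoprotein, went from 7.43, 19.3 and 19.4 CPM in primaries A, B and C to between 25.2 and 64.9 CPM (1.73). Tceal9 (1.37), Coq7, an enzyme of ubiquinone synthesis (1.28), and Ptgr1, a prostaglandin reductase (1.34), completed the group. For Ptgr1, A1 at 43.5 CPM was not above primary A at 45.2 CPM, and the direction in origin A rested on A2 at 124 CPM.

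**Figure D2:**
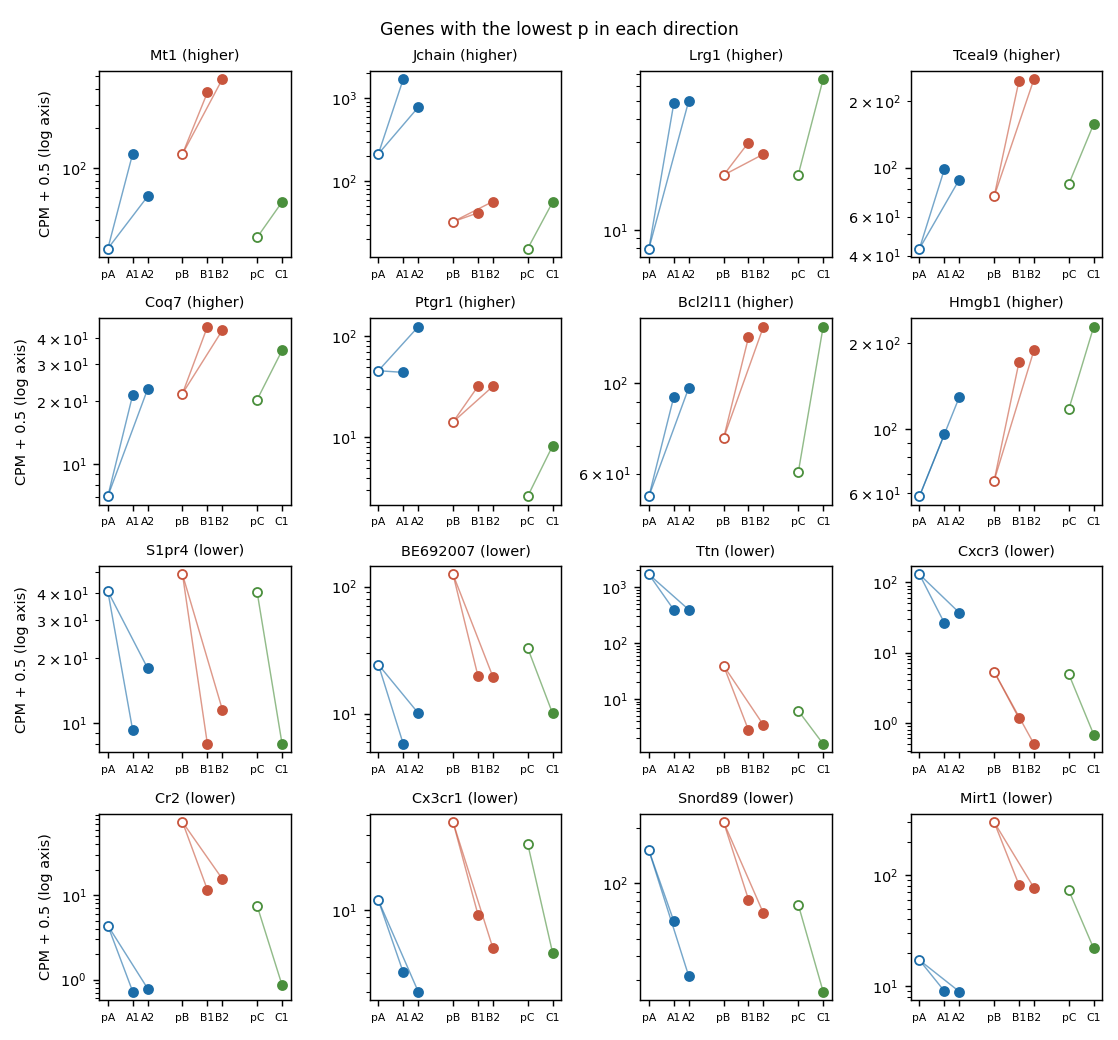
CPM + 0.5 on log axes for the 8 higher and the 8 lower genes with the lowest p, with open points for the primaries (pA, pB, pC), filled points for their transplants and lines joining each transplant to its primary. S1pr4 lies between 39.9 and 48.4 CPM in the primaries and between 7.54 and 17.5 CPM in the transplants.

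Jchain, the joining chain of secreted IgM and IgA, had the lowest p of the germinal centre and plasma cell genes. It was at 214 CPM in primary A against 1705 and 780 CPM, at 32.2 CPM in primary B against 41.3 and 56.7 CPM, and at 15 CPM in primary C against 55.7 CPM. The log2 fold change was 1.82 ± 0.39 (edgeR adjusted p = 0.749, DESeq2 adjusted p = 0.00168). Levels differed more between origins than between states, so the groups overlapped. Derl3, a factor of endoplasmic reticulum degradation in secretory cells, was at 43.1 against 145 and 99.7 CPM in origin A, at 82.7 against 111 and 83.9 CPM in B and at 12 against 69.9 CPM in C (1.52 ± 0.40). Xbp1 and Irf4, transcription factors of plasma cell differentiation, were higher in 3 of 3 pairs with log2 fold changes of 0.76 and 0.81, Irf4 most in origin A, from 116 to 327 and 405 CPM. Prdm1 and Sdc1, 2 other plasma cell genes, were lower in origin B and higher in A and C. Prdm1, the regulator of plasma cell differentiation, was at 56.7 CPM in primary B against 29.5 and 24.3 CPM, but at 71.7 CPM in primary A against 121 and 98 CPM and at 40.3 CPM in C against 119 CPM. Sdc1, the plasma cell surface proteoglycan CD138, was at 5.64 CPM in primary B against 2.62 and 2.95 CPM, at 1.19 CPM in A against 23.7 and 11 CPM and at 1.9 CPM in C against 7.55 CPM. Both were chosen after their values were seen.

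The germinal centre and plasma cell list held 14 genes, of which 12 passed the low-count filter. Its median log2 fold change was 0.68 against 0.01 for all genes tested. Of the 12, 6 were higher in 3 of 3 pairs (5 without scaling), against 14.2% of all genes, and 4 had an unadjusted p under 0.05 in that direction, against 2.4%. Mybl1, a germinal centre transcription factor, was the member lower in 3 of 3. Immunoglobulin constant genes went different ways. Igkc, the kappa light chain, was at 12221 CPM in primary A against 47500 and 23674 CPM, at 5921 against 7558 and 6883 CPM in origin B, and at 7342 against 18298 CPM in C. It was higher in 3 of 3 pairs (log2 fold change 1.17 ± 0.61, edgeR adjusted p = 0.82, DESeq2 adjusted p = 0.0403). Ighm, the IgM heavy chain, was at 10638 against 35826 and 15997 CPM in origin A and at 4251 against 5877 CPM in C. In origin B it was at 8452 CPM against 6826 and 7526 CPM, lower unscaled and higher only after TMM scaling.

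The other heavy chain classes differed among themselves. Ighd, the IgD constant gene of naive B cells, was at 17.2, 92.4 and 86.3 CPM in the primaries and lower in each transplant (log2 fold change -0.72 ± 0.32). Ighg2b, a class made by switched B cells, was at 23.2 CPM in primary A against 0.879 and 8.76 CPM, at 7.52 CPM in B against 0 and 1.64 CPM and at 3.38 CPM in C against 0.359 CPM (-2.75 ± 0.55, edgeR adjusted p = 0.749). Igha was also lower in 3 of 3 pairs. Ighg3, another switched class, was lower only in origin A, at 221 CPM against 58.9 and 95.2 CPM. It was at 26.3 CPM in primary B against 43.3 and 52.4 CPM and at 0.422 CPM in C against 1.44 CPM (log2 fold change 0.09 ± 0.77), and it was chosen after its values were seen.

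General B cell genes were detected in every library and differed in direction. Of the 16, all of which passed the low-count filter, 7 had a positive and 9 a negative log2 fold change, with a median of -0.48. In 3 of 3 pairs, 7 were lower and 1 higher, against 15.1% and 14.2% of all genes. Ms4a1, encoding CD20, stayed between 682 and 1415 CPM in the transplants against 895 to 1975 CPM in the primaries. Ptprc, encoding the B220 form of CD45 in B cells, was at 521 to 935 CPM in the primaries and 325 to 459 CPM in the transplants without overlap. Pax5, the transcription factor that holds B cell identity, was at 187 CPM in primary A against 73 and 175 CPM, but higher in the transplants of B (612 against 915 and 945 CPM) and C (205 against 419 CPM). Ebf1, which acts with Pax5, was at 1078 CPM in primary B and at 258 and 303 CPM in its transplants. In origin A it was at 98.7 against 90.1 and 154 CPM, and in C at 199 against 168 CPM.

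Genes of the B1 lineage did not move together. Of 17 members, 16 passed the low-count filter, 9 had a positive and 7 a negative log2 fold change, and the median of 0.08 turned to -0.02 when library totals replaced TMM. Cd5 was at 47 CPM in primary A against 22.2 and 39.3 CPM and at 30.4 CPM in B against 12.5 and 12.8 CPM. In origin C it was at 37.3 against 30 CPM (log2 fold change -0.64 ± 0.29, edgeR adjusted p = 0.82). The T cell gene Cd3d was also lower in 3 of 3 pairs, and the part of T cells in the Cd5 levels was not tested. Cd9, a tetraspanin of B1 and marginal zone B cells, was higher in 3 of 3 pairs after scaling, with 59.8 against 72.5 and 88.4 CPM in origin A and 32.3 against 50.9 CPM in C. Arid3a, Bhlhe41 and Zbtb32, transcription factors of B1 cells, kept at least 63.3 CPM in every library. S100a6, a calcium-binding protein, marked the origins rather than the state, with 1230 to 1896 CPM in origin A, 41.3 to 48.9 CPM in B and 261 to 313 CPM in C.

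Transcripts of mature follicular B cells and of lymphocyte homing had negative list medians in all 3 origins. Of 12 follicular genes, 11 passed the filter and 10 had a negative log2 fold change, with a median of -0.54. Of the 11, 6 were lower in 3 of 3 pairs, against 15.1% of all genes. Itgb7, a subunit of the gut homing integrin, was at 451 CPM in the mesenteric primary A against 230 and 340 CPM, at 79 CPM in B against 19 and 18 CPM and at 248 CPM in C against 149 CPM (-1.06 ± 0.33). Satb1, a chromatin organiser of T cells and some B cells, had 10.1, 23.1 and 23.2 CPM in the primaries and 1.08 to 4.59 CPM in the transplants (-2.65). Of 21 homing and egress genes, 20 passed the filter, with a median of -0.43. Of the 20, 8 were lower in 3 of 3 pairs, 7 without scaling, against 15.1% of all genes after scaling. Cxcr4 (72.8 to 141 CPM) and Cd44 (238 to 304 CPM) lay in one range in both states.

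MHC class II genes, which present antigen to CD4 T cells, leaned lower. All 11 passed the filter, 11 of 11 had a negative log2 fold change and 7 were lower in 3 of 3 pairs, against 15.1% of all genes, with a median of -0.59. H2-Oa, a regulator of peptide loading, was at 65.4 CPM in primary A against 20.9 and 28.2 CPM, at 164 CPM in B against 60 and 75.1 CPM and at 93.9 CPM in C against 83.9 CPM (-0.85 ± 0.33). H2-DMa, a peptide loading chaperone, was at 252, 294 and 228 CPM in the primaries and 100 to 166 CPM in the transplants without overlap (-0.76 ± 0.31, edgeR adjusted p = 0.82). Cd74, the invariant chain, went the other way in origin A, at 3132 against 3674 and 3916 CPM. Its log2 fold change was -0.00, and after scaling it was higher in 2 of 3 pairs. H2-Aa was at 3222, 2567 and 3237 CPM in the primaries and 1507 to 2565 CPM in the transplants, so class II transcripts remained abundant in every library.

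T and NK cell transcripts were lower in the transplants, as measured over whole lists. The summed level of 23 T cell genes was 577 CPM in primary A against 378 and 469 CPM, 753 CPM in primary B against 278 and 294 CPM, and 733 CPM in primary C against 354 CPM. Much of that sum was Cd2, an adhesion receptor that was at 216, 234 and 156 CPM in the primaries and 159 to 300 CPM in the transplants. Of the 23, 21 passed the low-count filter and 14 were lower in 3 of 3 pairs, beside 15.1% of all genes. An unadjusted p under 0.05 in that direction was found for 11, beside 3.06% of all genes. The median log2 fold change was -2.06. Members that are high only in primaries pass the filter through the primaries, so these counts describe the list and support nothing further. Fewer cells of a type and less RNA per cell cannot be told apart in these bulk samples.

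Cd3d, a subunit of the T cell receptor complex, was at 11.9 CPM in primary A against 3.3 and 4.52 CPM, at 37.1 CPM in B against 5.57 and 8.19 CPM and at 48.7 CPM in C against 2.7 CPM. Every transplant lay below every primary (log2 fold change -2.59 ± 0.53, edgeR adjusted p = 0.749, DESeq2 adjusted p = 0.00762). Cd4, the co-receptor of helper T cells, was at 27.1, 5.37 and 7.17 CPM in primaries A, B and C and at 6.78 CPM or less in the transplants (-3.35 ± 0.66). Cd27, a co-stimulatory receptor of T and memory B cells, was at 4.46, 17.7 and 19.8 CPM in the primaries and at most 2.54 CPM in the transplants (-3.56 ± 0.76). Not all T cell transcripts left the transplants of origin B. Cd3e was at 17.5 CPM in primary B and at 13.4 and 16.7 CPM in B1 and B2, and Lck, the T cell receptor kinase, at 100 CPM against 30.5 and 21.6 CPM. In C1 several defining T cell genes were at 0 counts. Trbc2, a T cell receptor constant gene, went from 139 CPM in primary C to 0, where 0 counts allow up to 0.539 CPM, and Cd28, Bcl11b and Cd247 were also at 0 in C1, while Lck stayed at 66.9 CPM. Cd28, a T cell co-stimulator, was at 212 CPM in primary A and at 87.7 and 62.7 CPM in its transplants, above the other primaries at 11.8 and 15.2 CPM.

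The summed level of 16 NK cell genes was 113 CPM in primary A against 34.5 and 77.1 CPM, 505 CPM in primary B against 82.6 and 90.1 CPM and 922 CPM in primary C against 6.11 CPM. Of the 16, 9 passed the filter, and the median log2 fold change was -2.74. Of the 9, 8 were lower in 3 of 3 pairs, against 15.1% of all genes. Here too, members high only in primaries pass the filter through the primaries, so this count supports nothing further. Ncr1, the defining NK receptor, was at or below 0.633 CPM in all 8 libraries, primaries included. Ccl5, a chemokine of cytotoxic lymphocytes, made up much of the sum, with 46.1 against 11.4 and 30.5 CPM in origin A, 336 against 48.5 and 52.4 CPM in B and 702 against 1.44 CPM in C. Il2rb, a receptor subunit for interleukins of NK and T cells, was at 13.4, 41.9 and 60.6 CPM in the primaries and 2.52 to 9.04 CPM in the transplants (log2 fold change -2.74 ± 0.69). Gzma, a granule protease, was lower in 3 of 3 pairs, with 8.33 to 10.5 CPM in the primaries and 0 to 3.96 CPM in the transplants. The 2 non-MCL transplants of the series, grown in NSG mice as well, had T cell sums of 260 and 856 CPM and NK cell sums of 118 and 182 CPM, against 278 to 469 CPM and 6.11 to 90.1 CPM in the 5 MCL-like transplants.

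**Figure D3:**
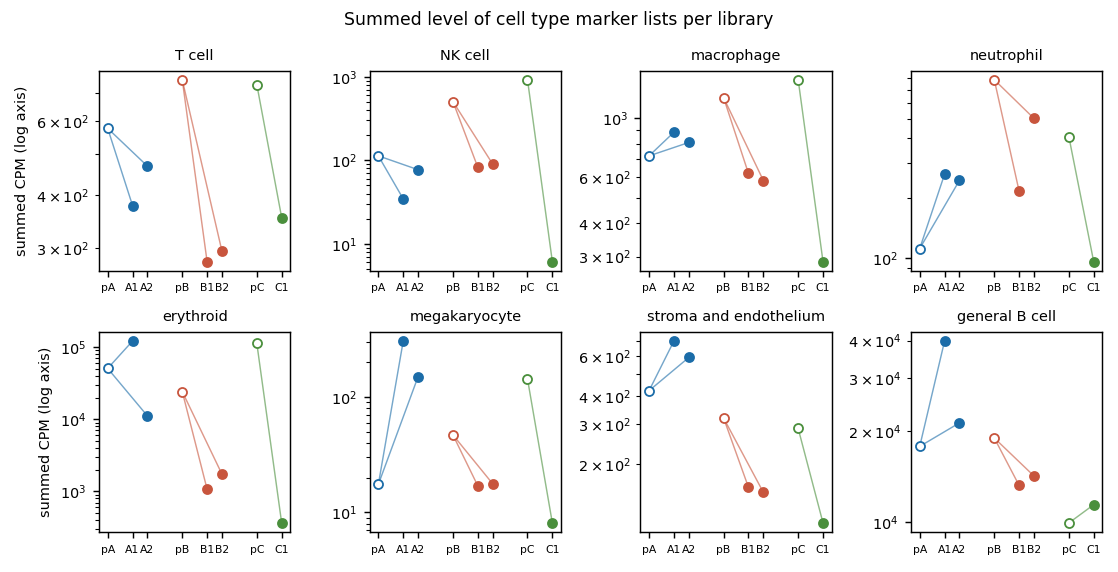
Summed CPM of 8 cell type marker lists in each of the 8 libraries on log axes that differ between panels, with open points for primaries, filled points for transplants and lines joining them to their primary. NK cell sums go from 113, 505 and 922 CPM in the primaries to between 6.11 and 90.1 CPM in the transplants, while myeloid, erythroid, megakaryocyte and stromal sums are lower in the transplants of B and C and mostly higher in those of A.

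Macrophage, neutrophil, platelet and stromal sums split by origin. Macrophage genes summed to 720 CPM in primary A against 884 and 809 CPM, to 1194 CPM in primary B against 618 and 581 CPM and to 1396 CPM in primary C against 287 CPM. Neutrophil genes summed to 112 against 264 and 246 CPM in origin A, to 785 against 217 and 502 CPM in B and to 407 against 96.3 CPM in C. Megakaryocyte genes summed to 17.5 against 307 and 151 CPM in A, to 47 against 17 and 17.7 CPM in B and to 144 against 8.09 CPM in C. Stromal and endothelial genes summed to 421 against 697 and 590 CPM in A, to 319 against 158 and 150 CPM in B and to 287 against 110 CPM in C. In all 4 lists, both transplants of the mesenteric primary lay above it and the transplants of the splenic primaries below theirs. The organ changed in origin A alone, so organ and origin cannot be told apart here. The list medians over the 3 pairs, from -0.95 for neutrophil to -0.39 for macrophage genes, average over these opposite directions. Without origin C the medians were 0.12 for macrophage, 1.53 for megakaryocyte and 0.35 for stromal genes, and -0.10 for neutrophil genes. Dendritic cell sums had another pattern, with 471 against 308 and 333 CPM in A and 193 against 230 and 263 CPM in B. In C the sum was 283 against 134 CPM. Most of each sum was Cst3, at 326 CPM in primary A against 265 and 261 CPM. Cst3 was at 162 CPM in B against 196 and 238 CPM and at 226 CPM in C against 127 CPM.

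Single genes crossed this split. Lyz2, the lysozyme of macrophages and neutrophils, was at 345 CPM in primary A against 39.6 and 25.4 CPM, at 398 CPM in B against 141 and 128 CPM and at 287 CPM in C against 76 CPM. Every transplant lay below every primary (log2 fold change -2.16 ± 0.48, edgeR adjusted p = 0.82, DESeq2 adjusted p = 0.00116). Cd163, a haemoglobin scavenger receptor of splenic red pulp macrophages, was at 0.297 against 12.7 and 4.8 CPM in A and at 3.38 against 15.8 CPM in C. In origin B its counts were 2 against 2 and 3, at or below the floor of 3 counts, and give no direction. Apoe, a lipid carrier of macrophages, was at 628, 464 and 318 CPM in the primaries and 32.4 to 287 CPM in the transplants (-2.04 ± 0.48). Mfge8, which tags dying cells for uptake and is made by follicular dendritic cells, was at 78.2 CPM in primary A against 48.3 and 28 CPM, at 54 CPM in B against 2.95 and 1.31 CPM and at 57.2 CPM in C against 4.49 CPM (-2.93 ± 0.74). Clu, another follicular dendritic cell transcript, was at 36 CPM in primary A against 22.6 and 31.9 CPM. In origin B it was at 12.6 against 0.655 and 0.656 CPM, and in C at 33.1 against 0.719 CPM. Pla2g2d, a phospholipase of lymphoid stromal and dendritic cells, was at 79.1, 44.3 and 108 CPM in the primaries and 1.98 to 16.7 CPM in the transplants. Apoe, Mfge8, Clu and Pla2g2d were chosen after their values were seen. Dcn, the fibroblast proteoglycan decorin, was at 28.8 CPM in primary A against 5.49 and 3.11 CPM and at 3.38 CPM in C against 0 CPM (-3.54 ± 0.87). Origin B had 1 count of Dcn in the primary and 0 in both transplants, which gives no direction. Cxcl13, the B cell follicle chemokine, was at 2.69 CPM in primary B and at 46.2 and 39 CPM in its transplants, and at or below 2.26 CPM in the other 5 libraries.

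Erythroid transcripts spanned the widest range. The 17 erythroid genes with a row summed to 50647 CPM in primary A against 121305 and 11114 CPM, to 24195 CPM in B against 1073 and 1730 CPM and to 112658 CPM in C against 366 CPM. A1 and A2 thus lay on opposite sides of their primary, and the list median of -3.18 over the 3 pairs was 0.02 without origin C. A1 also had the precursor genes Slc4a1 at 988 CPM and Car2 at 753 CPM, against 67.8 and 54.2 CPM in A2. Hba-a2, one of the near-identical alpha globin copies, was lower in 3 of 3 pairs, from 8280, 3119 and 20405 CPM in the primaries to between 2.34 and 58 CPM in the transplants (log2 fold change -9.40 ± 1.44, edgeR adjusted p = 0.749, DESeq2 adjusted p = 4.10e-10). Hba-a1, the other copy, was at 59894 CPM in A1. Among the counts of both copies, Hba-a2 took 38.4%, 32.7% and 37.1% in the primaries A, B and C and 0.0968% to 2.11% in the 5 transplants. In all 14 primary libraries of the series the share was 26.4 to 42.4%, and in all 8 transplant libraries 0.0968 to 2.11%. The split of reads between near-identical copies depends on how they were counted, and the source of the difference was not tested.

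Other transcripts split primaries from transplants in the same way, without regard to origin. They were chosen after their values were seen. Gm11942, a predicted gene, was at 44.6 CPM in primary A against 909 and 249 CPM, at 52.7 CPM in B against 125 and 186 CPM and at 31.4 CPM in C against 66.5 CPM. Over the series it lay between 24.9 and 62 CPM in the 14 primaries and between 66.5 and 909 CPM in the 8 transplants. Gm15459 was at 0 to 1.15 CPM in the 14 primaries and 2.38 to 21.5 CPM in the 8 transplants, and BC018473 at 0 to 0.254 CPM against 1.64 to 15.2 CPM. The primaries are of mixed 129/C57Bl6 background and the transplants hold cells of NOD-background hosts. Strain was not tested as a source of these differences.

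**Figure D4:**
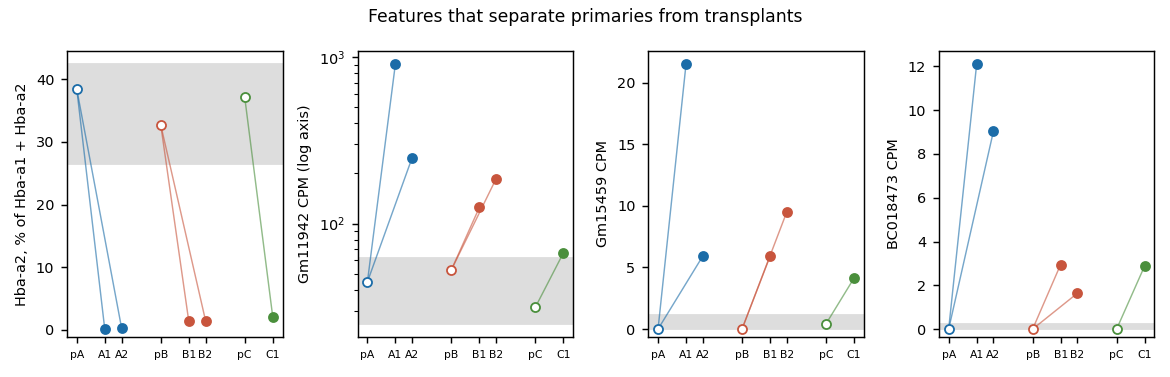
Share of Hba-a2 among the counts of Hba-a1 and Hba-a2 in percent, and CPM of Gm11942 (log axis), Gm15459 and BC018473, in the 8 libraries, with open points for primaries and filled points for transplants. The grey band is the range of the 14 primaries of the series, and all 5 transplants lie outside it in each panel, at 0.0968 to 2.11% for the Hba-a2 share against 26.4 to 42.4%.

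Sex-linked transcripts also differed within origins. Xist, the X-inactivation RNA of females, was at 227 CPM in primary A and at 923 and 824 CPM in A1 and A2, with Ddx3y, a Y-linked gene, at or below 0.282 CPM. In origin C, Ddx3y was at 59.1 CPM in the primary and 5.93 CPM in C1, and Uty, another Y-linked gene, at 31.9 against 2.88 CPM, while Xist was at 1.69 and 6.83 CPM. In origin B, Ddx3y was at 0 in the primary, which allows up to 0.806 CPM, and at 2.29 and 6.56 CPM in B1 and B2, and Xist was at 9.94, 2.95 and 2.95 CPM. The sex of the mice and hosts is not given in the sources used here, and loss of a sex chromosome from the tumour cells was not tested.

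Interferon-stimulated genes had their lowest ratios in origin C. Of 22 type I interferon genes, 19 passed the filter and 17 had a negative log2 fold change. Of the 19, 7 were lower in 3 of 3 pairs, against 15.1% of all genes. The median was -0.70 over the 3 pairs, and -0.32 in A, -0.17 in B and -1.73 in C. The summed level was 360 CPM in primary A against 1106 and 356 CPM, 1047 CPM in B against 496 and 517 CPM and 1010 CPM in C against 194 CPM. Rsad2, an antiviral enzyme, made up much of the sum, at 753 CPM in A1 and at 386 against 4.85 CPM in origin C. Oasl2, an antiviral protein, was lower in 3 of 3 pairs (-2.30 ± 0.69). In origin C the interferon gamma targets Cxcl9, at 35.2 against 0.18 CPM, Iigp1, at 101 against 0 CPM, and Irf1, at 433 against 90.2 CPM, were low in C1, whereas in origin B Cxcl9 stayed at 44.9 against 47.2 and 51.1 CPM and Iigp1 at 132 against 166 and 186 CPM. C1 also had the lowest NK cell sum, at 6.11 CPM against 922 CPM in its primary, and the part of NK cells in these levels was not tested. MHC class I genes had a median of -0.24. Tap1, a peptide transporter, was lower in 3 of 3 pairs (-0.75 ± 0.32), and B2m, the class I light chain, was at 5566 against 2164 CPM in origin C but between 4159 and 5259 CPM in the libraries of A and B.

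Growth-related lists had small positive medians. DNA replication genes had a median log2 fold change of 0.41 with 21 of 24 positive. By origin the median was 0.54 in A, 0.51 in B and 0.02 in C. Of the 24, 10 were higher in 3 of 3 pairs, 9 without scaling, against 14.2% of all genes after scaling. Lig1, the replicative DNA ligase, was at 285 CPM in primary A against 519 and 487 CPM, at 456 CPM in B against 738 and 785 CPM and at 704 CPM in C against 928 CPM (0.76 ± 0.34, edgeR adjusted p = 0.82). Lig1 was higher in every transplant than in its own primary. Mitosis genes had a median of 0.32 with 19 of 22 positive, but by origin 0.00 in A, 0.79 in B and 0.13 in C. Ube2c, a ubiquitin enzyme of mitotic exit, was at 116, 87.9 and 121 CPM in the primaries and 160 to 298 CPM in the transplants without overlap (1.01 ± 0.30), while Mki67, the common proliferation marker, was at 219 against 538 and 251 CPM in A, at 668 against 530 and 437 CPM in B and at 313 against 207 CPM in C. Ribosome biogenesis and Myc target genes had a median of 0.44, but by origin -0.22 in A, 0.90 in B and 0.63 in C. Ncl, the nucleolar protein nucleolin, was at 1022 CPM in primary B and at 3641 and 4022 CPM in its transplants. Myc itself was at 6.29 to 43.3 CPM in all 8 libraries. Heat shock genes were positive in 12 of 12, or 11 of 12 with library totals, with a median of 0.47. Of the 12, 4 were higher in 3 of 3 pairs, against 14.2% of all genes, and Hspa8 had a log2 fold change of 0.00.

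G1 regulators differed among themselves. Ccnd2 was higher in 3 of 3 pairs after scaling, with scaled levels of 1569 ± 249 in the primaries and 2075 ± 125 in the transplants (SD, n = 3 each), a log2 fold change of 0.41 ± 0.40 (edgeR adjusted p = 0.855). Without scaling it was not higher in origin B. Ccnd1, another D-type cyclin, was at 74 CPM in primary A against 20.9 and 100 CPM, at 19.9 CPM in B against 4.92 and 3.61 CPM and at 16.7 CPM in C against 0.899 CPM (-1.91 ± 0.71). The kinases Cdk4 and Cdk6, partners of D-type cyclins, were higher in 3 of 3 pairs after scaling with log2 fold changes of 0.59 and 0.60. Cdkn2a, which encodes the tumour suppressors of the Ink4a and Arf reading frames, separated the origins. It was at 416 CPM in primary A against 213 and 397 CPM, at 486 CPM in B against 963 and 1190 CPM, and at 1.48 CPM in C against 0.899 CPM. Primary C and C1 thus shared a near absence of Cdkn2a that neither other origin had.

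All 8 samples carry floxed p53 alleles with Cre by genotype, and the deletion itself was not measured here. Of 17 p53 target genes, 14 passed the filter and 11 had a positive log2 fold change. Of the 14, 2 were higher in 3 of 3 pairs, a share near the 14.2% of all genes. Mdm2, the p53 inhibitor and target, lay between 53.4 and 160 CPM over the 8 libraries. Cdkn1a, encoding the cell cycle inhibitor p21, was at 11 CPM in primary A against 53.6 and 15.5 CPM, at 5.37 CPM in B against 7.87 and 8.52 CPM and at 3.38 CPM in C against 10.8 CPM (1.45 ± 0.40, edgeR adjusted p = 0.82). Pmaip1, encoding the apoptosis trigger Noxa, was at 10.7 against 11.9 and 23.7 CPM in A, at 1.88 against 7.21 and 5.9 CPM in B and at 11.6 against 22.8 CPM in C (1.18 ± 0.45). The 3 of 12 tested Bcl2 family members higher in 3 of 3 pairs, against 14.2% of all genes, were Pmaip1, Bcl2l11 and Bid. All are triggers of apoptosis, as are most tested members of this list. Bax, Bak1, Bbc3, Bad and Bmf, which also promote apoptosis, were each higher in 2 of 3 pairs. For Bid, A1 at 22.9 CPM was not above primary A at 26.2 CPM, and A2 was at 67.2 CPM. Among the inhibitors of apoptosis, Bcl2 was at 249 CPM in primary A against 232 and 321 CPM. In origin B it was at 996 against 381 and 375 CPM, and in C at 293 against 239 CPM. Mcl1 lay between 441 and 1165 CPM in all 8 libraries.

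A list of 17 genes that were higher in MCL-like than in other primaries of the series was followed into the transplants. That list was chosen on these primaries, so a lower level in other samples is no independent evidence of a change. Of the 17, 7 had a positive and 10 a negative log2 fold change, with a median of -0.22. Adm, the vasodilator adrenomedullin, was at 113 CPM in primary A against 14.3 and 36.4 CPM, at 361 CPM in B against 171 and 180 CPM and at 150 CPM in C against 104 CPM (-1.14 ± 0.41, edgeR adjusted p = 0.82). Plekhm3, a membrane trafficking protein, was at 178, 116 and 106 CPM in the primaries and 46.9 to 135 CPM in the transplants, lower in 3 of 3 pairs (-0.84 ± 0.28). Sox5, a transcription factor, was at 102 CPM in primary A against 37.6 and 85 CPM, at 101 CPM in B against 68.8 and 60 CPM and at 57.4 CPM in C against 75.3 CPM, and so was present in all 5 transplants. Nfatc1, a calcium-regulated transcription factor, was at 62.1 CPM in primary A and at 414 and 530 CPM in primaries B and C, and its transplants kept that order.

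Surrogate light chain genes, which belong to early B cell precursors, differed in direction between origins. Vpreb1 was at 0.892 CPM in primary A against 38.5 and 62.7 CPM, at 224 CPM in primary B against 1.64 and 4.59 CPM, and at 1.69 CPM in C against 3.41 CPM. Igll1, its partner, followed with 0.297 against 11.2 and 11.9 CPM in A and 30.4 against 0.655 and 1.31 CPM in B. Both genes were thus higher in the transplants of A and lower in those of B. Il7r, the interleukin 7 receptor of precursors and T cells, was at 59.6 CPM in primary B against 1.64 and 1.64 CPM but at 22.8 CPM in C against 92.7 CPM. Rag1, the recombinase of precursors, was at or below 1.41 CPM in all 8 libraries.

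**Figure D5:**
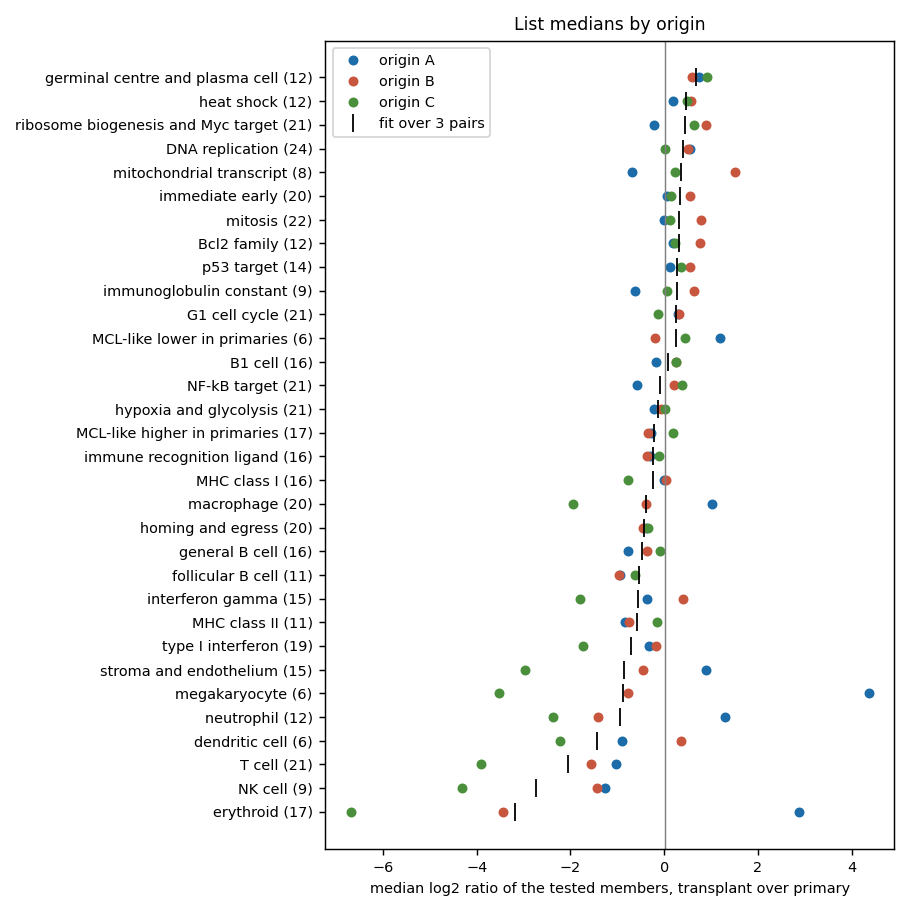
Median log2 ratio of transplant over primary for the gene lists with at least 6 tested members (number tested in brackets), with a point per origin and a bar for the median of the fit over 3 pairs. The germinal centre and plasma cell list lies at 0.59 to 0.91 in the 3 origins, and the erythroid list ranges from -6.68 in C to 2.87 in A.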

How the data were processed

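RNA of 3 primary MCL-like lymphomas and 5 transplants was profiled by QuantSeq 3' mRNA sequencing, per the labels' protocols. The deposited table holds raw read counts per gene. FastQC and STAR on GRCm38 are named in the submitters' processing notes, without versions, and the sources used here give neither the counter nor its strand setting. Tags at 3' ends carry no length correction, so levels of different genes are not compared. Of 52636 gene IDs, 52489 matched GENCODE M21, which gave symbols and coordinates.

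Pairs were formed by mouse of origin, sister transplants were summed, and origin entered as a block. Same-origin samples deviated together, with correlations of 0.231 in A, 0.359 in B and 0.243 in C. edgeR 4.0.16 in R 4.3.3 (limma 3.58.1) fitted quasi-likelihood models with TMM scaling and filterByExpr, with Benjamini-Hochberg adjustment over 12020 genes. DESeq2 1.42.0 was an alternative. The coefficient of variation between pairs was 0.422, with 2 residual degrees of freedom. The spread of each gene was moderated towards that of all genes, with a median prior of 6.65 degrees of freedom. The p-values and standard errors of edgeR hold this moderation. An exact sign-flip test over 3 pairs cannot go below p = 0.25 two-sided, so sums are described by pair. The test was tried on simulated counts. Pair ratios added 0.5 CPM. Named genes were key genes, the 8 lowest p-values in each direction (at least 10 CPM in the higher state, one direction in 3 of 3 pairs), and, for each list, at most 4 genes taken in order of adjusted p. Other list members named were chosen after their values were seen. Some list members are not reported here by name. The members and all 36 lists were chosen with earlier results of these data known. A further primary and a further transplant without a partner entered only an unpaired alternative.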

Additional observations from a re-analysis of the deposited data

Results flagged for a closer look

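Named genes were screened for transplants of the mesenteric primary A moving opposite to those of the splenic primaries B and C, by at least 1 on the log2(CPM + 1) scale in each of the 5 transplants. Of 174 genes, 3 met this, and the difference between the sites was not tested. Treml1, a platelet receptor, was on average 3.71 higher than its primary in A1 and A2, and -2.55 in the transplants of B and C. Itga2b, the platelet integrin CD41, had means of 1.65 and -2.04. Cela1, a pancreatic elastase, had means of 1.39 and -2.02 at low levels, with 0.297 CPM in primary A against 3.3 and 1.69 CPM. No group had enough origins for a screen of single samples standing apart.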

How the results depend on the processing

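In 14 of 19 settings 0 genes were called. With the origin as a replicate block and without it, edgeR called 0 genes, with 656 and 253 at an unadjusted p under 0.05. DESeq2 called 31 genes, 12 of them list members, limma-voom over 8 libraries with origin as a random effect 2 and 2, and edgeR without the low-count filter 35 and 11. The first and last shared 22 genes. Leaving out one origin or sister transplant gave between 0 and 14 called genes and between 0 and 3 called list members. Without origin A there were 14 genes, 13 of them lower, including the erythroid genes Rhd, Icam4 and Ctse. Without origin C there were 9, including Hba-a2, Cr2 and Cxcr3. The cause of these differences was not tested. List members made up 474 of the 12020 genes tested (3.94%), and they were chosen with earlier results known, so the counts of called members support nothing further. The sign of the log2 fold change differed from that of the paired edgeR fit under at least 1 of the 19 alternatives for 33 of 171 named genes, among them Cd74, Mki67 and Vpreb1, and for 16 of 36 list medians. Without origin C the erythroid median went from -3.18 to 0.02, macrophage from -0.39 to 0.12, megakaryocyte from -0.88 to 1.53 and stroma from -0.86 to 0.35. The B1 median went from 0.08 to -0.02 with library totals and to -0.05 without origin C, and that of the immunoglobulin constant genes from 0.27 to -0.19 without origin B. Among genes with at least 50 CPM, a cut chosen after seeing the data, primary B correlated at 0.779 and 0.780 with B1 and B2. On simulated counts of this design 2% of the 2-fold changes were recovered, all planted in genes with at least 10 CPM on average.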

Other observations

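Some genes differed most in 1 or 2 of the origins and were chosen after their values were seen. Tex19.2, a germline gene, was at 0.844 CPM in primary C and 97.6 CPM in C1, and at most 2.95 CPM in the other 6 libraries. Npy, a neuropeptide, was at 0 counts in all 3 primaries, at 21.5 and 16.1 CPM in A1 and A2 and at most 1.08 CPM in the other transplants. Ccl22, a chemokine that attracts regulatory T cells, was at 1.34 CPM in primary B against 20.3 and 22.6 CPM and at 14.1 CPM in primary C against 30.7 CPM. Ddit4, a stress-induced inhibitor of growth signalling, was at 104 CPM in primary C against 431 CPM in C1, but at 145 CPM in primary B against 57.7 and 59.3 CPM. Dusp2, a phosphatase induced by receptor signals, was at 97.9 CPM in primary C against 340 CPM, and between 32.1 and 86.8 CPM in the other 6 libraries.

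Mitochondrial transcripts summed to 61084 CPM in primary A against 34184 and 39462 CPM, to 24349 CPM in primary B against 50822 and 48763 CPM, and to 29489 CPM in primary C against 32704 CPM. Hypoxia and glycolysis genes had a median log2 fold change of -0.14 over 21 tested members. Tpi1 was higher in 3 of 3 pairs (0.74) and Eno1, another glycolytic enzyme, lower in 3 of 3 (-0.87), with edgeR adjusted p = 0.82 for both. NF-kB targets had a median of -0.10 and immediate early genes of 0.33. Dusp5, a phosphatase induced by receptor signals, was at 4.76 CPM in primary A against 5.71 and 12.7 CPM, at 11.8 CPM in B against 35.7 and 22.9 CPM and at 27.6 CPM in C against 54.8 CPM.

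A further MCL-like transplant, whose label names another mouse of origin, was left out of the pairs. It had Ighv1-69 in 12 of 12 heavy chain V counts, the leading segment of origin B, and correlated at r = 0.979 with B1 and 0.975 with B2, against 0.983 between those sisters. Its label and these values are given side by side, and no sample was reassigned. The unpaired primary was led by Ighv1-64, with 4 of 7 heavy chain V counts.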
